A study of Mus musculus with 19 samples.

Results

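The genes of the bone morphogenetic protein (BMP), transforming growth factor β (TGF-β) and Smad pathway were examined in sorted dorsal root ganglion (DRG) neurons. Members were chosen by gene name: the BMP, GDF, TGF-β and inhibin families, their receptors (Bmpr, Acvr and Tgfbr), the Smad, Smurf and Id genes, and a short set of regulators (Fstl1, Fstl3, Ltbp3, Ltbp4, Bambi, Eng, Ski, Skil, Tgif1 and others). Of 71 gene names that fit this rule, 36 had a row among the 12629 genes of the expression table, and the other 35 were not analysed here. Those 35 include Bmp2, Bmp4, Bmp5, Bmp7, Nog, Chrd, Fst, Tgfb1, Smad3, Smad6, Smad7, Acvrl1 and Bmpr1b.

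There were 4 groups of libraries from GFP-positive neurons sorted by FACS, all taken 8 weeks after AAV5 injection into the left C5 to C8 DRGs. In the GFP-naive group (n = 5), the DRGs received AAV5-fGFP and the roots were left intact. In the GFP-crush group (n = 4), AAV5-fGFP was combined with a crush of the dorsal roots at the time of injection. The α9k1-naive group (n = 6) received AAV5-α9-V5 together with AAV5-kindlin1-GFP and no crush, and the α9k1-crush group (n = 4) received both vectors and the crush. The fGFP and kindlin1-GFP vectors carry a CMV promoter and the α9-V5 vector a CAG promoter. Only the GFP tag was sorted, so that a cell of the α9k1 groups was selected for kindlin-1 and not for α9. The study's methods describe 2 month old male Lewis rats, whereas the sample labels give C57BL/6 mice, and reads were aligned to the mouse genome. The measured members are therefore named by the mouse gene to which reads were assigned. Replicates are called biological in the study's text. Which animals went into a library was not given in the sources used here.

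BMP and TGF-β ligands are secreted dimers that bring together type I and type II receptor kinases. The activated type I receptor phosphorylates receptor Smads: Smad1, Smad5 and Smad9 carry BMP signals, and Smad2 carries TGF-β and activin signals. Phosphorylated Smads pair with Smad4 and enter the nucleus, where the Id genes are classical targets of the BMP branch, while Ski, Skil and Tgif1 act as corepressors and Smurf ubiquitin ligases limit the signal. In DRG neurons, Smad1 has been linked to the growth state that follows injury of the peripheral axon.

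Each value is a log2 expression level normalized by the authors for gene length and depth, and a log2 difference (log2FC) of 1 is a 2-fold difference. Read pairs per library numbered 36.4 to 87.6 M. The share of reads that aligned was 47.5% to 54.1%, with mismatches at 3.87% to 4.05% of aligned bases. Correlations across genes were 0.948 to 0.976 within groups and 0.847 to 0.949 between groups. Some libraries lay apart from their group in the library metrics. In α9k1-naive replicate 6, 2.26% of bases were intronic, against 1.54% to 1.68% in the other α9k1-naive libraries and 2.04% to 2.32% in GFP-naive, and 69.0% were coding, against 70.8% to 72.0% and 69.0% to 69.9%. On the second covariate it was at -2.60, against 2.44 to 4.60 in the rest of its group. In GFP-crush replicate 3, 2.93% of bases were intronic, against 2.11% to 2.34% in the rest of its group, and 47.5% of reads aligned, against 50.7% to 52.1%. GFP-naive replicates 1 and 5 were at -8.25 and -6.46 on the first covariate, against 1.93 to 6.61 in the rest of that group. On the same covariate, α9k1-naive replicate 4 was at -4.77, against 0.19 to 0.50 in the rest of its group. Each library left out in turn ended between 1 and 12 of the 35 calls of members. Leaving out GFP-crush replicate 2 or GFP-naive replicate 2 ended 12 calls each, and replicate 4 of GFP-naive or of α9k1-naive ended 9 each. Of the libraries apart in the metrics, α9k1-naive replicate 6 ended 8 calls, GFP-crush replicate 3 ended 6, and GFP-naive replicates 1 and 5 ended 7 and 2. Fermt1, which encodes kindlin-1, was at 0.42 to 0.80 in the 9 GFP libraries and at 5.18 to 7.73 in the 10 α9k1 libraries. Itga9, which encodes α9, was at 0.90 to 2.40 in the GFP libraries, 2.38 to 5.16 in the α9k1-naive libraries and 5.53 to 7.51 in the α9k1-crush libraries, so that the lowest α9k1-naive library overlapped the GFP-naive libraries. Neuronal genes were high in all groups. Of 12 marker genes of satellite glia and Schwann cells, all had a row, and 2 were called higher and 6 lower in α9k1-naive versus GFP-naive. In bulk libraries of this kind, fewer cells of a type and less RNA per cell cannot be told apart.

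Differences were estimated with limma on all 19 libraries with the 3 leading principal components of the library metrics as covariates, and a gene was called at an adjusted p under 0.1. The covariates overlapped with the groups. They raised the variance of the estimate by a factor of 1.78 for α9k1-naive versus GFP-naive and 1.47 for GFP-crush versus GFP-naive, but by 6.22 for α9k1-crush versus GFP-crush and 5.10 for α9k1-crush versus α9k1-naive. For members described in a comparison with the α9k1-crush group, estimates without covariates are therefore given as well.

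The promoters of Tgfb2, Tgfbr2 and Eng are shown because these 3 genes of the TGF-β branch were called low in α9k1-naive, both against GFP-naive and against α9k1-crush. For Eng, the second of these calls was not made without covariates (adjusted p = 0.230) and held in 8 of 19 fits with a library left out. Id1 of the BMP branch was called in both comparisons too, though not without covariates in the second, and its promoter is not shown. Each sequence is the 250 bases before a RefSeq start site (GRCm38.p6), printed 5′ to 3′ on the strand of the gene. Capitals mark GTCTG, the core of the Smad binding element, on either strand. The windows lie at chr1:186705990-186706239 (minus strand), chr9:116175364-116175613 (minus strand) and chr2:32646345-32646594 (plus strand).
Tgfb2: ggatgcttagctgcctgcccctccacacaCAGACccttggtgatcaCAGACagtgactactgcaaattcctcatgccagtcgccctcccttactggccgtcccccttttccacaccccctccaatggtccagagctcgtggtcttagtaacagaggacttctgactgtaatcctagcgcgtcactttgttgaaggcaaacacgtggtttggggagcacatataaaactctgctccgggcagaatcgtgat
Tgfbr2: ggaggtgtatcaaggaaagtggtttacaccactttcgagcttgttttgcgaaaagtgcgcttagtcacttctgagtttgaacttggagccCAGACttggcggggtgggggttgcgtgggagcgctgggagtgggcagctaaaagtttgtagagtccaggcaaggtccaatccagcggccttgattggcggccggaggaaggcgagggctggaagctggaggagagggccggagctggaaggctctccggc
Eng: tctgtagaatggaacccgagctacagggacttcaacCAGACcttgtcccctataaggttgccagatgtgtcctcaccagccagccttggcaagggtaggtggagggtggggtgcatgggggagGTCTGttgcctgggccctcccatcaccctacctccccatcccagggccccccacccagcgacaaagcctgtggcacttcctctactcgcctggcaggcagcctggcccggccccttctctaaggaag
The Tgfb2 and Eng windows held 2 matches each and the Tgfbr2 window held 1. GTCTG was present in 42.2% of 32851 mouse promoter windows of this length, and in 18 of 38 windows of the 28 members that had an entry. The GC-rich Smad motif GGCGCC was in 13 of the 38 member windows and in 9.59% of all windows, and was in none of the 3 shown. The AP-1 motif TGANTCA was in 0 of the 38 member windows and in 6.75% of all. A match is a string of letters and not a measured binding site.

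**Figure D1:**
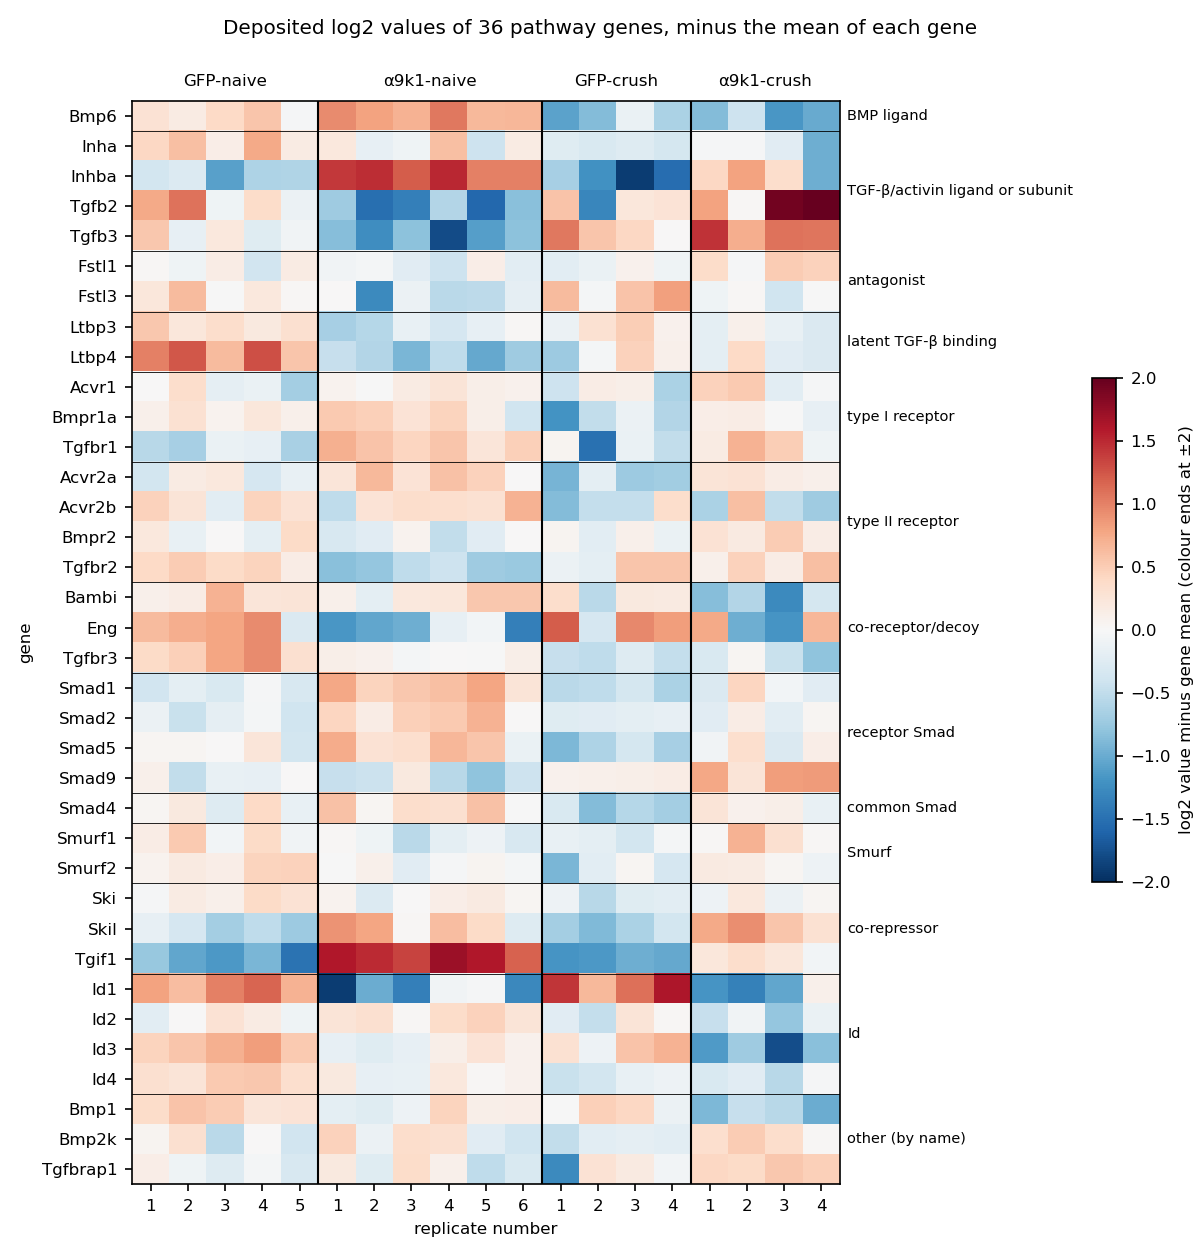
Level of the 36 measured members in the 19 libraries, each row centred on its mean over libraries and ordered by role (colour: log2 difference from the row mean, columns: libraries by group). The colour scale ends at 2 on either side. Tgif1 is higher and Id1 lower in each α9k1 column than in each GFP column.

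In α9k1-naive versus GFP-naive, members were called in both directions. The corepressor gene Tgif1, the activin subunit gene Inhba, the type I receptor gene Tgfbr1 and the receptor Smad genes Smad1 and Smad2 were higher in α9k1-naive than in GFP-naive. The ligand genes Tgfb2 and Tgfb3, the type II receptor gene Tgfbr2, the latent TGF-β binding protein genes Ltbp3 and Ltbp4 and the BMP target Id1 were lower. In all, 8 of 36 members were called higher, against 11.4% of all genes, and 9 were called lower, against 17.6% of all genes. The deposited values of the 2 groups did not overlap for 6 members that were higher and 9 that were lower, against 8.43% and 13.2% of all genes. The median log2FC was -0.12 over the members and -0.08 over all genes. Without covariates, 9 members were called higher and 13 lower, against 16.5% and 29.5% of all genes. With only the 2 groups in the fit, 4 were called higher, against 9.22% of all genes. With a replicate block beside the covariates, 9 were called higher and 3 lower, against 8.96% and 10.4% of all genes. Markers of other cell types moved in the same comparison: 6 of 6 measured endothelial, 5 of 6 fibroblast and 3 of 4 mural cell markers were called lower, and 4 of 7 macrophage markers higher. In addition, 1 fibroblast marker was called higher. Neuronal markers moved too, with 4 of 13 called lower and 1 higher. The part of all these markers in the counts of members was not tested. Leaving out single libraries moved these counts most without GFP-crush replicate 3, where 5 members were called higher (9.64% of all genes), and without GFP-naive replicate 2 or α9k1-naive replicate 6, where 4 and 3 were called lower (15% and 11.9% of all genes).

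With dorsal root crush in GFP neurons, the members that were called were all lower. In GFP-crush, 10 members were called lower than in GFP-naive, against 15.7% of all genes, and 0 were called higher, against 7.39% of all genes. They span the pathway from the ligand gene Bmp6 through the receptor genes Bmpr1a, Tgfbr3 and Bambi to Smad5, Smad4, Smurf2, Ski and Id4, together with Ltbp4. Of the 36 members, 9 were lower and 0 higher with no overlap of the groups, against 12.2% and 7.59% of all genes. The median log2FC was -0.26 over the members and -0.08 over all genes. At an unadjusted p under 0.05, 13 members passed, and without covariates 13 were called lower and 0 higher, against 20.1% and 11% of all genes. Quantile normalization gave 5 called lower, against 10.9% of all genes, and median centring gave 6, against 9.34%, with 14.5% of all genes then called higher. The fit with only the 2 groups called 0 members lower and 0.00792% of all genes. Without GFP-naive replicate 2, 6 were called lower, against 8.26% of all genes. In the same comparison, 5 of 6 fibroblast and 3 of 4 mural cell markers were called lower, 4 of 7 macrophage markers higher and 7 of 13 neuronal markers higher. Of 12 glial markers, 1 was called higher and 3 lower. The part of all these markers in these counts was not tested.

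After crush, no member was called between α9k1-crush and GFP-crush by limma with covariates, and 4 passed an unadjusted p under 0.05. Calls were scarce for all genes in this comparison, at 0.728% higher and 0.182% lower. The deposited values nevertheless did not overlap for 11 members that were higher in α9k1-crush and 3 that were lower, against 20% and 20.8% of all genes. Without covariates, 19 members were called higher and 6 lower, against 29.6% and 28.3% of all genes. In that fit, 8 of 12 glial, 4 of 6 endothelial and 2 of 4 mural cell markers were called lower and 3 of 7 macrophage markers higher. In the other direction, 1 glial marker was called higher and 1 macrophage marker lower. Of 6 fibroblast markers, 1 was called higher, and of 13 neuronal markers, 5 were called higher and 2 lower. The part of all these markers in these counts was not tested. With covariates, 0 of these markers were called. The median log2FC over the members was 0.29 with covariates and 0.36 without, and over all genes it was 0.01 and 0.03.

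Within α9k1 neurons, 4 members were called higher in α9k1-crush than in α9k1-naive, against 4.47% of all genes, and 2 were called lower, against 5.27%. Tgfb2, Eng, Id1 and Tgfbr2 were the 4, and Bmp6 and Tgif1 the 2. Without covariates, Eng and Id1 were not called. The deposited values did not overlap for 7 members that were higher and 7 that were lower, against 17.4% and 16.1% of all genes. Without covariates, 9 were called higher and 12 lower, against 28.5% and 27.1% of all genes. With only the 2 groups in the fit, 0 were called in either direction, against 0.127% and 0.143% of all genes. With a replicate block beside the covariates, 1 was called higher and 0 lower, against 1.23% and 1.39%. Of the markers of other cell types, 4 of 6 fibroblast, 2 of 6 endothelial and 4 of 12 glial markers were called higher with covariates and 2 glial markers lower. In the same fit, 1 of 4 mural cell and 1 of 7 macrophage markers were called higher. Of the neuronal markers, 4 of 13 were called higher. Their part in these counts was not tested. The median log2FC was -0.04 over the members and 0.00 over all genes. The number called higher was 1 without α9k1-naive replicate 3 or 4 or GFP-crush replicate 2, and 2 without α9k1-naive replicate 1 or 2, GFP-crush replicate 3 or α9k1-crush replicate 4, against 2.43% to 4.44% of all genes in these fits. The number called lower was 1 without GFP-naive replicate 1, α9k1-naive replicate 1 or 2, or α9k1-crush replicate 4, against 3.02% to 4.01% of all genes. This comparison shares the α9k1-naive libraries with α9k1-naive versus GFP-naive, so that a gene high or low in those 6 libraries moves in opposite directions in both.

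**Figure D2:**
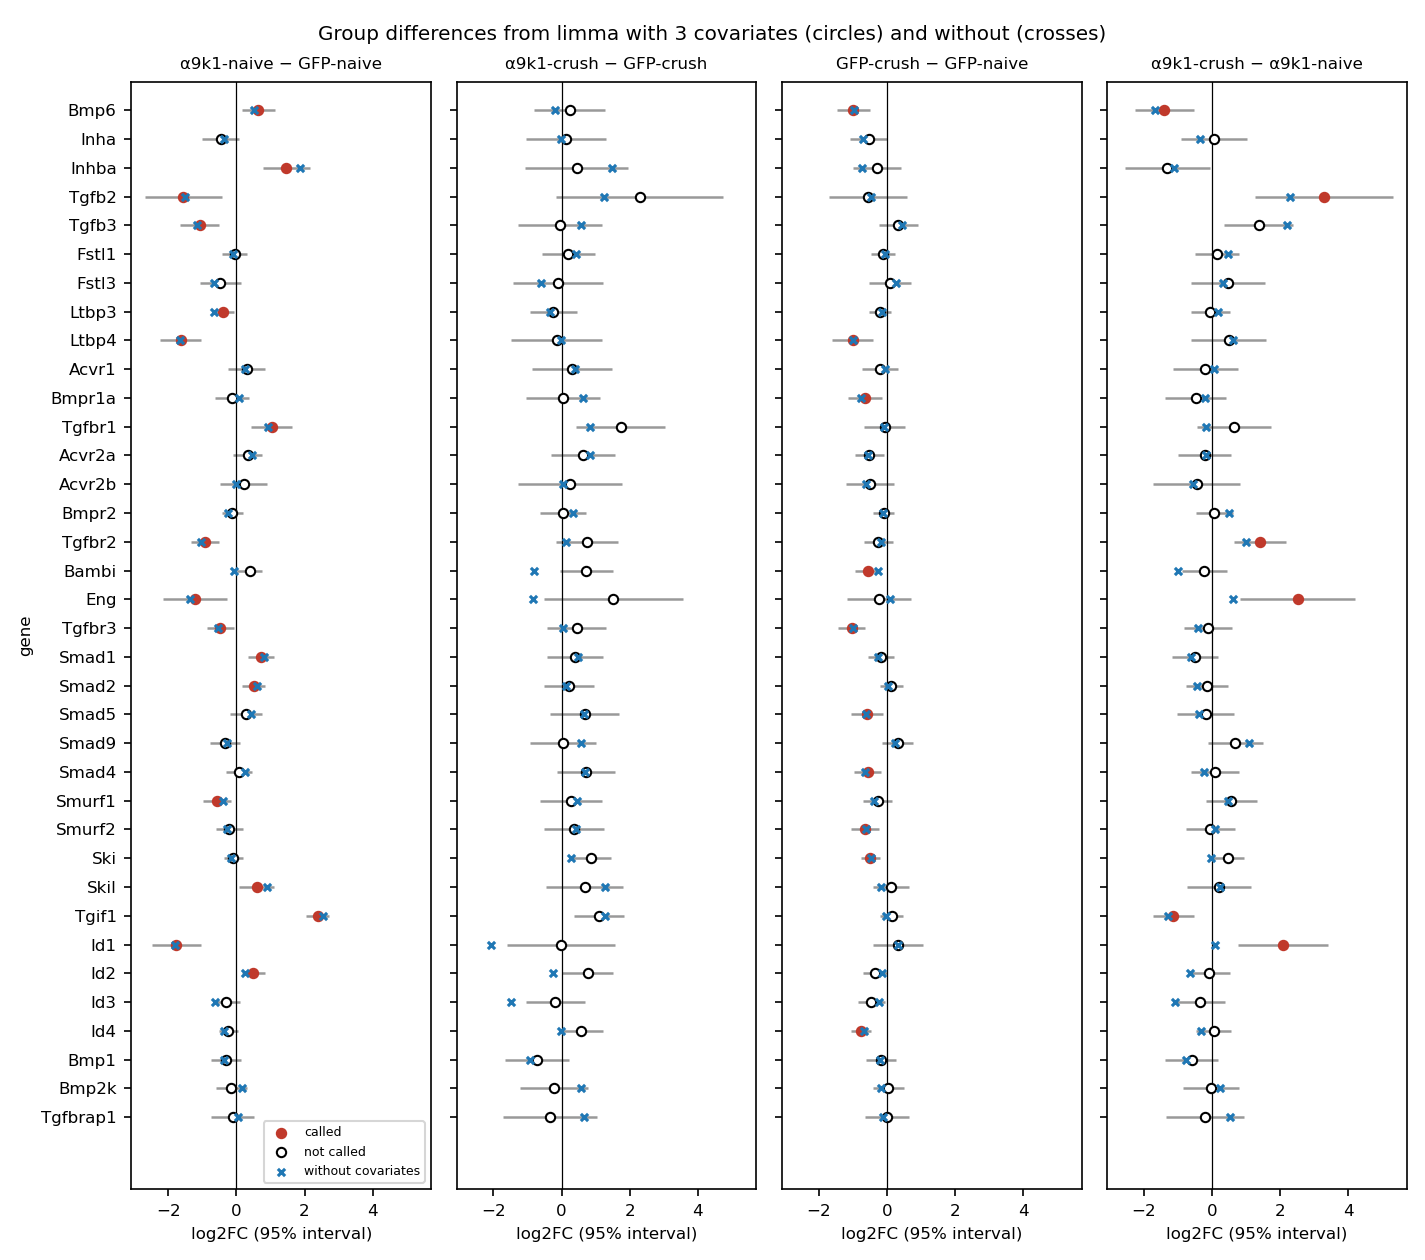
Differences between groups for the 36 members in the 4 comparisons (x axis: log2FC; bars: 95% intervals of limma with covariates; filled circles: called; crosses: limma without covariates). For Id1, circle and cross lie close together in α9k1-naive versus GFP-naive (-1.76 and -1.80) and far apart in α9k1-crush versus GFP-crush (-0.02 and -2.07). Bambi lies on either side of 0 in both of these comparisons (0.39 and -0.06, and 0.73 and -0.81).

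Among the ligands, Bmp6 was the only BMP ligand gene with a row. Its level was 4.63, 4.50, 4.74, 4.90 and 4.31 in the GFP-naive libraries, and 4.98 at the lowest, 5.08 at the median and 5.39 at the highest in α9k1-naive. It was 3.26, 3.47, 4.20 and 3.70 in GFP-crush and 3.47, 3.92, 3.17 and 3.32 in α9k1-crush. Each crushed library was thus below each naive library, and each α9k1-naive library was above each GFP-naive library. The log2FC was 0.64 (SE 0.23, adjusted p = 0.0543) for α9k1-naive versus GFP-naive. With crush, Bmp6 changed by -0.99 (SE 0.23, adjusted p = 0.0114) in GFP neurons and by -1.40 (SE 0.41, adjusted p = 0.0580) in α9k1 neurons, or -1.67 without covariates. The first of these calls was lost without GFP-naive replicate 2 (0.63), GFP-crush replicate 3 (0.47) or α9k1-crush replicate 3 (0.60). The third was lost without GFP-naive replicate 1 (-1.36), α9k1-naive replicate 1 (-1.21) or 2 (-1.37), or α9k1-crush replicate 4 (-1.31). A stretch of 5.74% of the exon bases of Bmp6 overlaps Txndc5 on the opposite strand.

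Inhba encodes the βA subunit shared by activin A and inhibin A. It was at 1.79, 1.87, 1.07, 1.54 and 1.54 in GFP-naive, and at 3.16, 3.47 and 3.66 (lowest, median and highest) in α9k1-naive, with no overlap. In GFP-crush it was at 1.49, 0.94, 0.26 and 0.63, and in α9k1-crush at 2.56, 2.96, 2.50 and 1.17. One α9k1-crush library, replicate 4, lay within the range of GFP-crush. The log2FC of 1.47 (SE 0.33, adjusted p = 0.00510) for α9k1-naive versus GFP-naive was called, and was not called without α9k1-naive replicate 6 (1.18). After crush, the α9k1 difference was 0.44 (95% interval -1.08 to 1.96) with covariates and 1.47 (adjusted p = 0.000800) without. Crush in GFP neurons gave -0.28 (adjusted p = 0.599) with covariates and -0.73 (adjusted p = 0.0780) without. Inha, which encodes the inhibin α subunit, was called in none of the 4 comparisons, with means of 3.47, 3.11, 2.77 and 2.75 in GFP-naive and α9k1-naive and in GFP-crush and α9k1-crush, respectively.

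Tgfb2 and Tgfb3 encode TGF-β isoforms. Tgfb2 was at 3.20, 3.54, 2.36, 2.81 and 2.32 in GFP-naive, 0.88, 1.34 and 1.86 (lowest, median and highest) in α9k1-naive, 3.01, 1.14, 2.67 and 2.71 in GFP-crush, and 3.26, 2.46, 4.37 and 4.48 in α9k1-crush. It was lowest in α9k1-naive, where no library reached the GFP-naive or the α9k1-crush values. The log2FC was -1.56 (SE 0.53, adjusted p = 0.0476) for α9k1-naive versus GFP-naive and 3.29 (SE 0.95, adjusted p = 0.0564) for α9k1-crush versus α9k1-naive, or 2.29 without covariates. The first call was lost without GFP-naive replicate 1 (-1.18) or 2 (-1.31), α9k1-crush replicate 3 (-1.30) or α9k1-naive replicate 6 (-1.92). The second was lost without GFP-crush replicate 2 (2.44), α9k1-crush replicate 4 (2.64), or α9k1-naive replicate 2 (3.15), 3 (3.15) or 4 (3.43).

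Tgfb3 showed a similar order of groups. Its values were 3.68, 2.97, 3.34, 2.89 and 3.07 in GFP-naive, 1.34, 2.16 and 2.31 (lowest, median and highest) in α9k1-naive, 4.19, 3.69, 3.55 and 3.14 in GFP-crush, and 4.58, 3.86, 4.23 and 4.20 in α9k1-crush. All α9k1-naive libraries were below all others. Tgfb3 fell by 1.08 (SE 0.27, adjusted p = 0.00964) in α9k1-naive relative to GFP-naive, and this call held in 19 of 19 fits with a library left out. In α9k1-crush relative to α9k1-naive it differed by 1.37 (SE 0.48, adjusted p = 0.114) with covariates and by 2.19 (adjusted p = 3.43e-07) without. Tgfb3 shares 7.60% of its exon bases with Gm48008 on the opposite strand.

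TGF-β is stored in the matrix bound to latent binding proteins. Ltbp4 was at 4.51, 4.73, 4.14, 4.78 and 4.06 in GFP-naive and at 2.48, 2.84 and 3.04 (lowest, median and highest) in α9k1-naive. It was at 2.76, 3.46, 3.95 and 3.60 in GFP-crush and at 3.30, 3.89, 3.26 and 3.21 in α9k1-crush. GFP-naive thus stood above the other 3 groups without overlap. Ltbp4 fell by 1.64 (SE 0.29, adjusted p = 0.000875) with α9k1 and by 1.01 (SE 0.29, adjusted p = 0.0312) with crush in GFP neurons, the latter call being lost without GFP-naive replicate 2 (-0.85). Ltbp3 was at 5.14, 4.84, 4.95, 4.80 and 4.93 in GFP-naive and at 3.93, 4.35 and 4.62 (lowest, median and highest) in α9k1-naive. In GFP-crush Ltbp3 was at 4.49, 4.91, 5.09 and 4.69, and in α9k1-crush at 4.40, 4.70, 4.45 and 4.32, and these groups overlapped. The call of Ltbp3, -0.40 (SE 0.15, adjusted p = 0.0729) for α9k1-naive versus GFP-naive, held in 13 of 19 fits with a library left out and was lost without GFP-naive replicate 1 (-0.38), 2 (-0.38) or 4 (-0.32), GFP-crush replicate 2 (-0.35), α9k1-crush replicate 3 (-0.35) or α9k1-naive replicate 6 (-0.45). The follistatin-like genes Fstl1 and Fstl3 were called in none of the 4 comparisons with covariates. Without them, Fstl1 was higher in α9k1-crush than in GFP-crush (0.42, adjusted p = 0.0223) and α9k1-naive (0.47, adjusted p = 0.00684), and Fstl3 was lower with α9k1 both after crush (-0.61, adjusted p = 0.0383) and without it (-0.65, adjusted p = 0.0167). Fstl3 shares 47.3% of its exon bases with Prss57 on the opposite strand.

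Fibroblast genes followed a pattern close to that of Ltbp4. The summed linear level (2 to the power of the value) of the 6 measured fibroblast markers of 7 listed was 690 to 860 in GFP-naive, 108 to 306 in α9k1-naive, 280 to 348 in GFP-crush and 244 to 330 in α9k1-crush. In α9k1-naive versus GFP-naive, 5 of the 6 were called lower and Fbln1 was called higher, and in GFP-crush versus GFP-naive 5 were called lower. Pdgfra of this list was not analysed here. The 4 measured mural cell markers of 6 listed summed to 46.6 to 56.9, 14.5 to 25.2, 18.6 to 42.6 and 16 to 30.8 in the same order of groups. The part of these cells in the Ltbp4 result was not tested.

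Among the type I receptors, Tgfbr1, the TGF-β type I kinase, was at 2.45, 2.34, 2.86, 2.84 and 2.35 in GFP-naive and at 3.24, 3.52 and 3.71 (lowest, median and highest) in α9k1-naive. It was at 3.06, 1.52, 2.87 and 2.50 in GFP-crush and at 3.17, 3.69, 3.49 and 2.92 in α9k1-crush. The naive groups did not overlap and the crushed groups did. Tgfbr1 rose by 1.04 (SE 0.28, adjusted p = 0.0170) with α9k1 in naive neurons, a call that held in 19 of 19 fits with a library left out. After crush, the α9k1 difference was 1.74 (95% interval 0.43 to 3.05, adjusted p = 0.376) with covariates and 0.83 (adjusted p = 0.0110) without.

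Bmpr1a, a type I receptor for BMPs, was at 3.84, 4.04, 3.81, 3.97 and 3.84 in GFP-naive and at 3.34, 4.09 and 4.26 (lowest, median and highest) in α9k1-naive. It was at 2.53, 3.24, 3.61 and 3.15 in GFP-crush and at 3.86, 3.87, 3.73 and 3.57 in α9k1-crush. GFP-crush was the low group, with no overlap with GFP-naive. The crush difference in GFP neurons was -0.64 (SE 0.23, adjusted p = 0.0785), and the call held in 12 of 19 fits with a library left out. It was lost without GFP-crush replicate 1 (-0.42), 2 (-0.61) or 4 (-0.66), GFP-naive replicate 2 (-0.58), 3 (-0.61) or 4 (-0.62), or α9k1-crush replicate 3 (-0.58). Between α9k1-crush and GFP-crush the difference was 0.03 (95% interval -1.05 to 1.11) with covariates and 0.63 (adjusted p = 0.0142) without. Acvr1, the other measured type I receptor gene, was called in none of the 4 comparisons, with means between 2.50 and 2.88.

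Tgfbr2, the type II receptor that binds TGF-β, was at 4.75, 4.85, 4.73, 4.80 and 4.50 in GFP-naive, 3.51, 3.63 and 3.94 (lowest, median and highest) in α9k1-naive, 4.23, 4.16, 4.91 and 4.91 in GFP-crush, and 4.45, 4.81, 4.50 and 4.96 in α9k1-crush. Only the α9k1-naive libraries stood apart, below all others, whereas Tgfbr1 was high in them. Tgfbr2 fell by 0.92 (SE 0.20, adjusted p = 0.00399) in α9k1-naive relative to GFP-naive and rose by 1.40 (SE 0.35, adjusted p = 0.0318) in α9k1-crush relative to α9k1-naive, or by 0.99 without covariates. The first call was lost without α9k1-naive replicate 6 (-0.64) and the second without α9k1-naive replicate 4 (1.10).

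Bmpr2, the type II receptor for BMPs, was called in none of the 4 comparisons with covariates. It was at 4.01, 3.65, 3.82, 3.60 and 4.18 in GFP-naive, 3.31, 3.57 and 3.87 (lowest, median and highest) in α9k1-naive, 3.86, 3.58, 3.90 and 3.66 in GFP-crush, and 4.09, 3.99, 4.31 and 3.95 in α9k1-crush. The α9k1-crush libraries were above those of GFP-crush and α9k1-naive. The respective differences were 0.04 (95% interval -0.63 to 0.71) and 0.07 (95% interval -0.48 to 0.62) with covariates, and 0.33 (adjusted p = 0.0597) and 0.49 (adjusted p = 0.00528) without. The activin type II receptor genes Acvr2a and Acvr2b were not called either. Acvr2a had means of 3.65, 4.12, 3.11 and 3.94 in GFP-naive and α9k1-naive and in GFP-crush and α9k1-crush, respectively, with no overlap between the crushed groups, which differed by 0.83 (adjusted p = 0.000610) without covariates. Acvr2a shares 7.84% of its exon bases with Orc4 on the opposite strand.

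Coreceptors and the decoy receptor Bambi modulate ligand access. Tgfbr3 (betaglycan), which presents TGF-β to its receptors and binds inhibin, was at 3.27, 3.37, 3.67, 3.84 and 3.20 in GFP-naive and at 2.84, 2.94 and 3.01 (lowest, median and highest) in α9k1-naive. It was at 2.43, 2.38, 2.63 and 2.41 in GFP-crush and at 2.58, 2.93, 2.45 and 2.09 in α9k1-crush. The GFP-naive libraries were above all others. The log2FC was -1.04 (SE 0.19, adjusted p = 0.00269) for crush in GFP neurons, called in 19 of 19 fits with a library left out. For α9k1-naive versus GFP-naive it was -0.48 (SE 0.18, adjusted p = 0.0795), a call that held in 11 of 19 such fits, ranging from -0.54 to -0.30. It was lost without GFP-naive replicate 2, 3 or 4, GFP-crush replicate 2, α9k1-crush replicate 3, or α9k1-naive replicate 4, 5 or 6.

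Eng (endoglin), a coreceptor best known in endothelium, was at 3.56, 3.66, 3.71, 3.88 and 2.64 in GFP-naive and at 1.56, 1.92 and 2.87 (lowest, median and highest) in α9k1-naive. It was at 4.13, 2.59, 3.88 and 3.76 in GFP-crush and at 3.67, 1.94, 1.75 and 3.59 in α9k1-crush, so that α9k1-crush split into 2 high and 2 low libraries. The log2FC for α9k1-naive versus GFP-naive was -1.22 (SE 0.44, adjusted p = 0.0598), and the groups overlapped. This call of Eng was lost without GFP-naive replicate 1 (-0.78) or 2 (-1.23) or α9k1-naive replicate 6 (-0.28). For α9k1-crush versus α9k1-naive it was 2.51 (SE 0.79, adjusted p = 0.0789) with covariates but 0.61 (adjusted p = 0.230) without, and it held in 8 of 19 fits with a library left out (2.06 to 3.36). It was lost without GFP-naive replicate 2, 3 or 5, GFP-crush replicate 1, 2 or 3, α9k1-crush replicate 4, or α9k1-naive replicate 1, 2, 3 or 4. Bambi was called in GFP-crush versus GFP-naive at -0.56 (SE 0.17, adjusted p = 0.0398), while the difference without covariates was -0.25 (adjusted p = 0.416). Its libraries ranged from 3.74 to 4.33 in GFP-naive and from 3.09 to 3.98 in GFP-crush. Its call was lost without GFP-crush replicate 2 (-0.45), and with only the 2 groups in the fit the difference was 0.27 (adjusted p = 0.884).

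**Figure D3:**
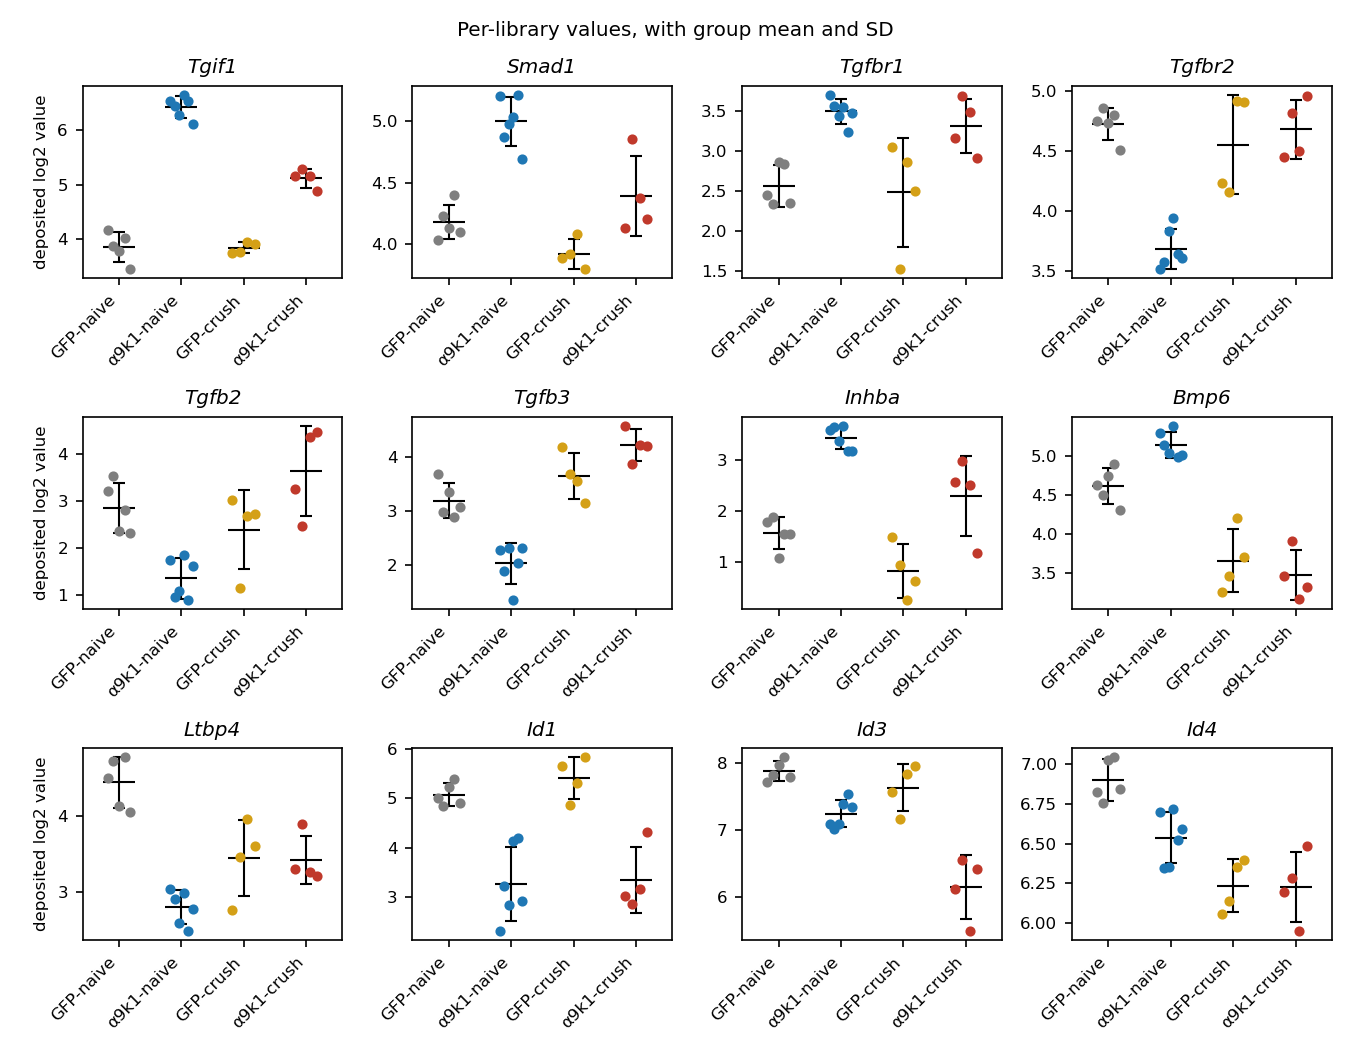
Level of named members in each library by group (points: libraries; black bars: group mean and SD; y axis: deposited log2 value). Tgif1 is highest in α9k1-naive (6.10 to 6.64) and intermediate in α9k1-crush (4.88 to 5.28), whereas Tgfbr2 is low in α9k1-naive (3.51 to 3.94) and not in α9k1-crush (4.45 to 4.96).

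Of the receptor Smads, Smad1, which transmits BMP signals, was at 4.04, 4.23, 4.13, 4.40 and 4.10 in GFP-naive and at 4.69, 5.0 and 5.21 (lowest, median and highest) in α9k1-naive. It was at 3.89, 3.93, 4.08 and 3.80 in GFP-crush and at 4.13, 4.86, 4.37 and 4.20 in α9k1-crush. In both pairs, each α9k1 library was above each GFP library. Smad1 rose by 0.72 (SE 0.18, adjusted p = 0.00966) in α9k1-naive relative to GFP-naive, called in 19 of 19 fits with a library left out. After crush, the α9k1 difference was 0.40 (95% interval -0.42 to 1.22) with covariates and 0.47 (adjusted p = 0.0134) without. Crush in GFP neurons gave -0.18 (95% interval -0.56 to 0.20).

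Smad2, of the TGF-β branch, was at 5.36, 5.04, 5.30, 5.45 and 5.09 in GFP-naive and at 5.49, 5.93 and 6.18 (lowest, median and highest) in α9k1-naive, with no overlap. It was at 5.24, 5.26, 5.28 and 5.31 in GFP-crush and at 5.25, 5.63, 5.26 and 5.52 in α9k1-crush, which overlapped. The difference of 0.51 (SE 0.16, adjusted p = 0.0311) between the naive groups was called in 19 of 19 fits with a library left out. Smad5 was called in 1 comparison, at -0.57 (SE 0.22, adjusted p = 0.0915) in GFP-crush versus GFP-naive, where its libraries ranged from 2.36 to 2.90 and from 2.88 to 3.49. The Smad5 call held in 7 of 19 fits with a library left out (-0.77 to -0.45) and not without GFP-naive replicate 1, 2, 3 or 4, GFP-crush replicate 1, 2 or 4, α9k1-crush replicate 3 or 4, or α9k1-naive replicate 2, 3 or 5. Smad9 was called in none with covariates. Without them it was higher in α9k1-crush than in α9k1-naive by 1.09 (adjusted p = 2.84e-05), with means of 3.82 and 2.74 and no overlap, against 0.69 (adjusted p = 0.312) with covariates.

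Smad4, the partner of all receptor Smads, was at 4.81, 4.97, 4.52, 5.17 and 4.63 in GFP-naive and at 4.76, 5.11 and 5.36 (lowest, median and highest) in α9k1-naive. It was at 4.47, 3.90, 4.20 and 4.10 in GFP-crush and at 5.03, 4.86, 4.90 and 4.63 in α9k1-crush. GFP-crush was the lowest group and overlapped with neither of its comparison groups. The crush difference in GFP neurons was -0.56 (SE 0.18, adjusted p = 0.0535), called in 14 of 19 fits with a library left out. That call was lost without GFP-crush replicate 2 (-0.41) or 4 (-0.51), GFP-naive replicate 2 (-0.50) or 4 (-0.51), or α9k1-naive replicate 4 (-0.46). The α9k1 difference after crush was 0.72 (95% interval -0.13 to 1.56, adjusted p = 0.622) with covariates and 0.69 (adjusted p = 0.00228) without.

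Smurf1 and Smurf2 encode ubiquitin ligases that target Smads and receptors. Smurf2 was at 2.78, 2.90, 2.86, 3.16 and 3.19 in GFP-naive and at 2.49, 2.70 and 2.82 (lowest, median and highest) in α9k1-naive. It was at 1.81, 2.50, 2.75 and 2.39 in GFP-crush and at 2.90, 2.88, 2.76 and 2.62 in α9k1-crush. The crush difference of Smurf2 in GFP neurons was -0.64 (SE 0.19, adjusted p = 0.0370), with no overlap, and was called in 19 of 19 fits with a library left out. Smurf1 differed by -0.56 between the naive groups (SE 0.19, adjusted p = 0.0524), with means of 3.44 in α9k1-naive and 3.83 in GFP-naive and overlapping values. That call was lost without GFP-naive replicate 2 (-0.43) or 4 (-0.51) or α9k1-naive replicate 6 (-0.67).

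The corepressor gene Tgif1, whose product binds Smads with histone deacetylases, had the largest difference of the members between the naive groups. It was at 4.17, 3.89, 3.78, 4.02 and 3.45 in GFP-naive and at 6.10, 6.48 and 6.64 (lowest, median and highest) in α9k1-naive. It was at 3.75, 3.77, 3.95 and 3.91 in GFP-crush and at 5.15, 5.28, 5.15 and 4.88 in α9k1-crush. Both α9k1 groups were above both GFP groups, and α9k1-crush was below α9k1-naive, all without overlap. Tgif1 rose by 2.39 (SE 0.16, adjusted p = 5.30e-08) in α9k1-naive relative to GFP-naive and changed by -1.13 (SE 0.28, adjusted p = 0.0311) in α9k1-crush relative to α9k1-naive, both called in 19 of 19 fits with a library left out. The latter was -1.30 without covariates. In α9k1-crush relative to GFP-crush the difference was 1.11 (SE 0.34, adjusted p = 0.269) with covariates and 1.27 (SE 0.14, adjusted p = 3.95e-06) without. Crush in GFP neurons gave 0.15 (95% interval -0.19 to 0.49).

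Skil, which encodes SnoN, was likewise higher with α9k1. It was at 2.80, 2.62, 2.28, 2.45 and 2.23 in GFP-naive and at 2.69, 3.46 and 3.86 (lowest, median and highest) in α9k1-naive, a difference of 0.60 (SE 0.24, adjusted p = 0.0920). This call held in 7 of 19 fits with a library left out (0.48 to 0.97) and not without GFP-naive replicate 1, 3, 4 or 5, GFP-crush replicate 2 or 3, α9k1-crush replicate 1, 2 or 3, or α9k1-naive replicate 2, 4 or 5. Skil was at 2.28, 2.07, 2.32 and 2.59 in GFP-crush and at 3.71, 3.89, 3.51 and 3.26 in α9k1-crush, with no overlap, and the difference was 0.68 (adjusted p = 0.754) with covariates and 1.28 (adjusted p = 0.000151) without. The related gene Ski was at 4.17, 4.36, 4.29, 4.58 and 4.48 in GFP-naive, 3.93, 4.25 and 4.38 (lowest, median and highest) in α9k1-naive, 4.09, 3.65, 3.96 and 3.98 in GFP-crush, and 4.10, 4.40, 4.08 and 4.23 in α9k1-crush. Crush in GFP neurons changed Ski by -0.49 (SE 0.13, adjusted p = 0.0208), in 19 of 19 fits with a library left out. For Ski, the α9k1 difference after crush was 0.86 (95% interval 0.27 to 1.44, adjusted p = 0.299) with covariates and 0.28 (adjusted p = 0.0630) without.

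The 4 Id genes encode inhibitors of basic helix-loop-helix factors and did not move together. Id1 was at 5.01, 4.84, 5.23, 5.38 and 4.92 in GFP-naive and at 2.31, 3.08 and 4.19 (lowest, median and highest) in α9k1-naive. It was at 5.65, 4.87, 5.32 and 5.84 in GFP-crush and at 3.04, 2.87, 3.18 and 4.32 in α9k1-crush. Both α9k1 groups were below both GFP groups without overlap. Id1 fell by 1.76 (SE 0.34, adjusted p = 0.00192) in α9k1-naive relative to GFP-naive, called in 19 of 19 fits with a library left out. After crush, the α9k1 difference was -0.02 (95% interval -1.61 to 1.57) with covariates and -2.07 (SE 0.37, adjusted p = 0.000219) without. In α9k1-crush versus α9k1-naive, the group means of 3.35 and 3.28 differed by 0.07, while limma with covariates gave 2.07 (SE 0.61, adjusted p = 0.0619). That call of Id1 held in 13 of 19 fits with a library left out, with values from 1.67 to 2.53, and was lost without GFP-crush replicate 2 or 3 or α9k1-naive replicate 1, 3, 4 or 6.

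Id2 was at 6.69, 6.90, 7.19, 7.06 and 6.81 in GFP-naive and at 6.91, 7.19 and 7.36 (lowest, median and highest) in α9k1-naive. It was at 6.67, 6.42, 7.15 and 6.92 in GFP-crush and at 6.44, 6.83, 6.12 and 6.76 in α9k1-crush. Its levels overlapped between most groups. The call of Id2 was 0.50 (SE 0.16, adjusted p = 0.0385) for α9k1-naive versus GFP-naive, against 0.25 (adjusted p = 0.195) without covariates, and it was lost without GFP-crush replicate 3 (0.41).

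Id3 was at 7.71, 7.83, 7.97, 8.09 and 7.79 in GFP-naive and at 7.01, 7.22 and 7.53 (lowest, median and highest) in α9k1-naive. It was at 7.57, 7.16, 7.84 and 7.96 in GFP-crush and at 6.13, 6.56, 5.50 and 6.43 in α9k1-crush. The α9k1-crush libraries were below all others, and the α9k1-naive libraries were below GFP-naive. None of the 4 comparisons was called with covariates. For α9k1-naive versus GFP-naive, Id3 differed by -0.30 (adjusted p = 0.271) with covariates and by -0.63 (adjusted p = 0.00840) without. For α9k1-crush versus GFP-crush, Id3 differed by -0.18 (95% interval -1.04 to 0.68) with covariates and by -1.48 (SE 0.20, adjusted p = 2.03e-05) without. The satellite glia gene Fabp7 was also lowest in α9k1-crush, with means of 9.54, 9.77, 8.64 and 7.01 in GFP-naive and α9k1-naive and in GFP-crush and α9k1-crush, respectively, as was Kcnj10 (4.24, 3.83, 3.55 and 2.45). The summed level of the 12 glial markers was 11905 to 14859, 5919 to 7618, 12555 to 18221 and 7132 to 12835 in the same groups, so that the list as a whole was lowest in α9k1-naive. The part of glial RNA in the Id3 result was not tested.

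Id4 was at 6.82, 6.76, 7.03, 7.05 and 6.85 in GFP-naive and at 6.34, 6.56 and 6.72 (lowest, median and highest) in α9k1-naive. It was at 6.05, 6.14, 6.35 and 6.40 in GFP-crush and at 6.19, 6.28, 5.95 and 6.48 in α9k1-crush. GFP-naive was above the other groups. Crush in GFP neurons changed Id4 by -0.76 (SE 0.13, adjusted p = 0.00259), called in 19 of 19 fits with a library left out. For α9k1-naive versus GFP-naive, Id4 differed by -0.23 (adjusted p = 0.239), or -0.36 (adjusted p = 0.0135) without covariates.

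The summed level of endothelial genes had an order of groups like that of Id1 and Eng. The 6 measured endothelial markers of 9 listed summed to a linear level of 104 to 157 in GFP-naive, 27.0 to 76.3 in α9k1-naive, 99.0 to 179 in GFP-crush and 33.2 to 95.8 in α9k1-crush. Pecam1, Cdh5 and Kdr of this list were not analysed here. Cldn5, a tight junction gene of endothelium, had means of 6.09, 3.75, 6.27 and 3.91. All 6 markers were called lower with α9k1 in naive neurons. The 2 α9k1-crush libraries with high Eng, replicates 1 and 4, had the 2 highest endothelial sums of that group (95.8 and 66.4, against 42.1 and 33.2). For Id1, the picture was mixed. In α9k1-naive, replicates 4 and 5 had the highest sums (41.4 and 76.3) and the highest Id1 (4.15 and 4.19). In GFP-crush, the lowest sum (99.0, replicate 2) went with the lowest Id1 (4.87). The highest sum of that group (179, replicate 4) went with the highest Id1 (5.84). In α9k1-crush, the library with the sum of 95.8 had Id1 at 3.04, and Id1 was highest (4.32) in replicate 4, with a sum of 66.4. The part of endothelial RNA in the Id1 and Eng results was not tested. Macrophage genes, by contrast, summed to 95.9 to 160 in GFP-naive, 256 to 330 in α9k1-naive, 289 to 431 in GFP-crush and 216 to 412 in α9k1-crush (7 measured of 10 listed). Neuronal genes (13 of 13 measured) summed to 11173 to 14189, 7336 to 9168, 16217 to 22758 and 16360 to 22629.

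**Figure D4:**
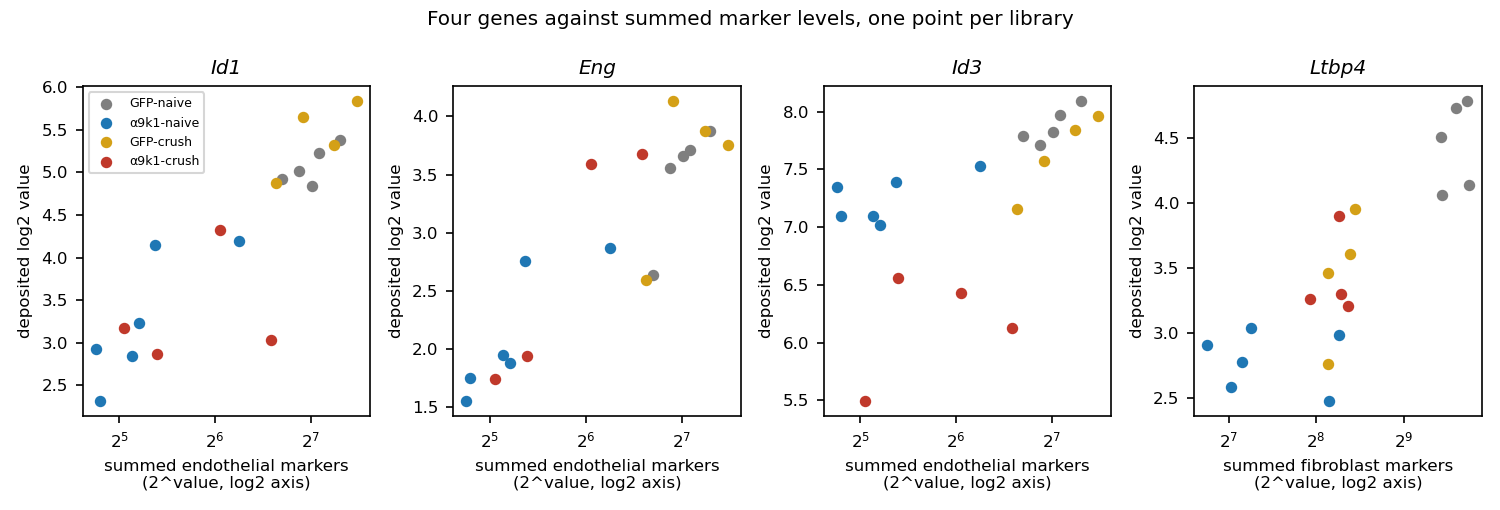
Level of Id1, Eng and Id3 against the summed level of endothelial markers, and of Ltbp4 against that of fibroblast markers, in the 19 libraries (points: libraries coloured by group). Id1 is low in the α9k1 libraries, whose endothelial sums are at most 95.8.

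The interaction, the α9k1 difference after crush minus that without crush, was called for 2 members. It was 1.65 (SE 0.41, adjusted p = 0.0693) for Tgfbr2, which was low in α9k1-naive but not in α9k1-crush, and -1.28 (SE 0.33, adjusted p = 0.0793) for Tgif1, whose rise was smaller after crush. These are 1 member called higher and 1 lower, against 1.35% and 0.847% of all genes, and 9 members passed an unadjusted p under 0.05. Without covariates the values were 1.17 (adjusted p = 0.00122) and -1.29 (adjusted p = 0.000142), and 11 members were called higher and 7 lower, against 23.3% and 16.1% of all genes. Without covariates, the members called higher included Tgfb2 (2.75, adjusted p = 0.00255), Tgfb3 (1.73, adjusted p = 0.000845) and Ltbp4 (1.62, adjusted p = 0.000962), whose values with covariates were 3.84 (adjusted p = 0.118), 1.03 (adjusted p = 0.426) and 1.49 (adjusted p = 0.265). The Tgfbr2 call held in 11 of 19 fits with a library left out, with values from 1.34 to 1.81, and was lost without GFP-naive replicate 2, 3 or 4, α9k1-naive replicate 1, 2 or 4, GFP-crush replicate 2 or α9k1-crush replicate 4. The Tgif1 call held in 9 of 19, with values from -1.40 to -1.08, and was lost without GFP-naive replicate 1, 3 or 4, α9k1-naive replicate 1, 2 or 4, GFP-crush replicate 2 or 3, or α9k1-crush replicate 1 or 4. With a replicate block beside the covariates, 0 members were called in either direction, against 0.15% and 0.0554% of all genes.

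Across the 4 comparisons, 24 of 36 members were called in at least 1, against 44.4% of all genes, and 12 in none. The 12 were Inha, Fstl1, Fstl3, Acvr1, Acvr2a, Acvr2b, Bmpr2, Smad9, Id3, Bmp1, Bmp2k and Tgfbrap1. The last 3 match the naming rule without being ligands, receptors or Smads: Bmp1 encodes a procollagen protease, Bmp2k a kinase and Tgfbrap1 a receptor-associated protein. Bmp1 had means of 4.09, 3.73, 3.89 and 2.97 in GFP-naive and α9k1-naive and in GFP-crush and α9k1-crush, respectively, and its crushed groups did not overlap, with α9k1-crush below GFP-crush. The log2FC was -0.73 (adjusted p = 0.653) with covariates and -0.92 (adjusted p = 0.000243) without. Of the 36 members, 14 share exon bases with another annotated gene. The library kit does not mark strand, so that reads from such stretches cannot be told apart between genes on opposite strands.

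Other genes of the pathway that the naming rule does not cover were counted in a list of 77, of which 54 had a row. In α9k1-naive versus GFP-naive, 7 were called higher and 8 lower, against 11.4% and 17.6% of all genes. Thbs1, which encodes the TGF-β activator thrombospondin 1, was higher (2.68, SE 0.24, adjusted p = 1.53e-06), and Dcn, which encodes the TGF-β binding proteoglycan decorin, fell by 3.10 (SE 0.57, adjusted p = 0.00131). The BMP antagonist genes Chrdl2 and Sostdc1 were also lower (-2.27 and -1.04), and Amhr2, the type II receptor of anti-Müllerian hormone, was higher by 1.75. In GFP-crush versus GFP-naive, 1 was called higher and 16 lower, against 7.39% and 15.7% of all genes, with Dcn (-1.67), Emilin1 (-1.63) and Itgav (-1.32), an integrin subunit that takes part in activation of latent TGF-β, at the low end. In α9k1-crush versus α9k1-naive, 2 were called higher and 2 lower, against 4.47% and 5.27% of all genes, among them Chrdl2 at 2.17 (3.04 without covariates) and Thbs1 at -1.87 (-2.06 without). The deposited means of Chrdl2 were 3.86 in GFP-naive, 1.81 in α9k1-naive and 4.86 in α9k1-crush. Dcn is also one of the fibroblast markers above.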

How the data were processed

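Expression was measured by RNA-seq (SMART-Seq v4 libraries) in 19 libraries of sorted DRG neurons, grouped by their labels. According to the methods, the authors aligned reads to the mouse genome (mm10) with STAR, counted them with Salmon and removed genes under 10 counts in over 80% of samples. The authors deposited log2 values after adding a small pseudocount and cqn normalization, which adjusts for gene length and depth. The values run from -0.77 to 16.7, with library medians of 4.30 to 4.48. Since this table has no gene names, its row order was taken from the deposited gene table and checked through Fermt1, Itga9 and neuronal genes. The gene table also holds the authors' log2 fold changes, averages, p-values and adjusted p-values, which were not used. A deposited table of Picard metrics holds counts of reads and bases, fractions, percentages and ratios, as the authors' tools gave them.

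One limma fit (limma 3.58.1, R 4.3.3) took all 19 libraries and 12629 genes, with 4 group means and the first 3 principal components (45.9%, 24.1% and 11.5% of variance) of 48 scaled metrics as covariates. Batch, a term of the study's model, was left out because the sample table does not give it. The threshold was an adjusted p (Benjamini-Hochberg, all genes) under 0.1, and every adjusted p is from limma's moderated test. Intervals are 95% intervals of one estimate. The script was tested on simulated data. Alternatives were no covariates, only the groups compared, quantile normalization, median centring, leaving out the 25% of genes with the lowest mean, a replicate block and leaving out each library. Values per library were given for members called in at least 1 comparison without overlap of its groups (at most the 20 with the largest log2FC) and for the main Smad, receptor and Id genes. For Eng and Skil they were added after their values were seen. Outside the members, the 3 genes with the largest and smallest log2FC among those called without overlap were named, apart from a gene whose result is not reported here. Fabp7, Kcnj10 and Cldn5 were picked from the marker lists after their values were seen. The other measured endothelial markers were then named beside Cldn5. Members and lists were chosen with earlier results of these data known. Counting error cannot be given for normalized values, and the SE covers the spread between libraries. Promoters came from RefSeq (GRCm38.p6) and exon overlaps from GENCODE M21. All 36 members were in that annotation, 26 of them with the deposited coordinates.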

Additional observations from a re-analysis of the deposited data

Results flagged for a closer look

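Ltbp4 in α9k1-crush replicate 2 was at 3.89, while the other libraries of the group were at 3.21 to 3.30, a gap beyond Dixon's 95% limit for 4 samples. It was the only such value in 84 groups of a named member, where chance gives about 1 in 20.

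The α9k1 difference changed with crush for Tgif1 (interaction -1.28, SE 0.33, adjusted p = 0.0793) and for Tgfbr2 (1.65, SE 0.41, adjusted p = 0.0693), both by the interaction term of limma with covariates. Neither was called with a replicate block beside the covariates. For Tgif1, all libraries of both α9k1 groups were above all GFP libraries. For Tgfbr2 the 6 α9k1-naive libraries were below all 13 others.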

How the results depend on the processing

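Without covariates, α9k1-crush versus GFP-crush gave 19 members called higher and 6 lower in place of 0 and 0, 9 higher and 12 lower for α9k1-crush versus α9k1-naive, and the interaction 11 higher and 7 lower. In the same setting, values that were not called with covariates were called with the opposite sign: in α9k1-crush versus GFP-crush Bambi (-0.81), Bmp2k (0.57), Tgfb3 (0.57) and Tgfbrap1 (0.67), in α9k1-crush versus α9k1-naive Id4 (-0.31) and Tgfbrap1 (0.51), and in the interaction Bambi (-0.76), Id2 (-0.50) and Id3 (-0.85). When the fit held only the 2 groups of a comparison, 4 members were called higher in α9k1-naive versus GFP-naive, 0 lower in GFP-crush versus GFP-naive, and none (0 higher, 0 lower) in α9k1-crush versus α9k1-naive, with fewer libraries to estimate the spread, and Bambi reversed in GFP-crush versus GFP-naive (0.27). The interaction was not run in that setting. Quantile normalization gave 5 and median centring 6 called lower in GFP-crush versus GFP-naive. Without the 25% of genes with the lowest mean, 20 members were left in the test. Of these, 5 were called lower in α9k1-naive versus GFP-naive (19.7% of all genes left), 2 higher in α9k1-crush versus α9k1-naive (5.59%) and 2 higher in the interaction (1.59%).

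With a replicate block beside the covariates, 3 members were called lower in α9k1-naive versus GFP-naive (10.4% of all genes), 1 higher and 0 lower in α9k1-crush versus α9k1-naive (1.23% and 1.39%), and 0 higher and 0 lower in the interaction (0.15% and 0.0554%). No pairing by number was seen: deviations from group means correlated at -0.27 to 0.15 for the same number and at -0.22 to 0.27 for different numbers. Such correlations can miss a shared batch, which the sample table does not give.

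Leaving out single libraries gave 5 to 9 members higher and 3 to 9 lower in α9k1-naive versus GFP-naive, 0 higher and 6 to 13 lower in GFP-crush versus GFP-naive, 1 to 5 higher and 1 to 3 lower in α9k1-crush versus α9k1-naive, 0 to 3 higher and 0 to 1 lower in the interaction, and 0 in α9k1-crush versus GFP-crush. Of the 35 calls of members, 31 held without covariates, 30 with quantile normalization, 29 with median centring and 21 with the block. With only the groups compared, 12 of the 33 that could be run held. Without the 25% of genes with the lowest mean, only 23 of the 35 calls could be run, and these held. The calls that did not hold in a setting kept their direction, except for Bambi above.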
